A study of Mus musculus with 35 samples.

Results

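The 9 genes described here are the homeostatic identity genes of microglia, P2ry12, P2ry13, Tmem119, Siglech, Fcrls, Gpr34, Olfml3, Sall1 and Selplg, taken by name from 25655 genes. All 9 had an adjusted p in each of 8 comparisons that the authors made between groups of mouse retina. Messenger RNA was sequenced from retina described in the series text as CX3CR1-WT, that is, wild type for this gene, in 35 samples of 7 groups. The diabetic groups were D8 depleted (8 weeks of diabetes with 2 weeks of microglia depletion, 4 samples), D10 repopulated (10 weeks of diabetes, with 2 weeks of depletion and then 2 weeks of recovery, 5 samples), and D6, D8 and D10 (6, 8 and 10 weeks of diabetes without depletion, 5 samples each). The non-diabetic groups were ND repopulated (2 weeks of depletion and 2 weeks of recovery, 5 samples) and ND (6 samples). PBS is part of the labels of D8 and D10 but not of ND or D6, and D8 and D10 therefore differ from ND by PBS as well as by diabetes. The labels write DTx for the depleting treatment, whereas the series text names PLX-5622, an inhibitor of the CSF1 receptor, so the treatment is called depletion here. The sources used here give neither the ages of the mice nor the way diabetes was brought about.

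The values are the authors' own comparisons, with a log2 fold change, its p and the larger group mean for every gene. No value per sample was used, so sequencing depth and the spread between samples are unknown. A standard error was derived from each p, as the error at which a normal test of that log2 fold change gives that p. Its median over all tested genes lay between 0.141 and 0.168 log2 in the 8 comparisons, and for the 9 genes it ran from 0.22 to 1.28. Whether samples came from separate animals is not in the labels, so each p measures the spread between samples, which may be technical. The test behind the p is not given, so that spread may include samples of other groups. The median log2 fold change of all tested genes lay between -0.0032 and 0.0394 in the 8 comparisons. A gene is said to rise or fall where its adjusted p in the authors' deposited table was under 0.05.

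Microglia are the resident macrophages of the retina. In healthy tissue they carry a set of surface receptors and regulators, many of which other macrophages hold at low levels or lack. TGF-beta signalling and the factor Sall1 are known to maintain that set. Activated microglia are known to lose part of it, and microglia that return after depletion are known to regain it over time. In a whole retina, fewer microglia and less RNA of a gene in each microglial cell cannot be told apart.

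The set falls into receptors for nucleotides and lipids, lectins and other surface proteins, a secreted protein and a transcription factor. P2ry12 (ENSMUSG00000036353) lies on chr3:59123693-59170292 of GRCm39 and encodes the ADP receptor that steers microglial processes towards injury. P2ry13 (ENSMUSG00000036362), its neighbour on chr3:59115313-59118303, encodes a related ADP receptor. Gpr34 (ENSMUSG00000040229), on chrX:13498328-13507097, encodes a receptor for lysophosphatidylserine. Tmem119 (ENSMUSG00000054675), on chr5:113931790-113938577, encodes a membrane protein used as a microglial marker. Selplg (ENSMUSG00000048163), on chr5:113956597-113970705, encodes PSGL-1, the leukocyte ligand of the selectins. Siglech (ENSMUSG00000051504), on chr7:55417926-55428673, encodes a sialic acid binding lectin that signals through the adaptor DAP12 and is shared with plasmacytoid dendritic cells. Fcrls (ENSMUSG00000015852), on chr3:87158065-87171045, encodes an Fc receptor-like scavenger receptor of mouse microglia. Olfml3 (ENSMUSG00000027848), on chr3:103629538-103645317, encodes a secreted olfactomedin-like protein. Sall1 (ENSMUSG00000031665), on chr8:89753863-89770790, encodes the zinc finger factor named above.

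Promoters of 250 bases before to 50 bases after a start site were matched by symbol for 6 of the 9 genes (8 windows, RefSeq, build GRCm38.p6, which differs from the build of the tables). Windows were found for P2ry12, P2ry13, Fcrls, Siglech, Olfml3 and Sall1, the last with several windows. Binding motifs of factors known in microglia were searched on both strands, each only as the letters given here, so close variants were not counted. The PU.1 motif GAGGAAGT was in none of the 8 windows and in 3.20% of all 32851 promoters. The SMAD palindrome GTCTAGAC was in none and in 0.213% of all promoters. RUNX (TGTGGTTT, 1.78% of all promoters), IRF (GAAANNGAA, 8.56%) and MAF (TGCTGAC, 4.67%) motifs were also in none of the 8. The short SMAD motif CAGACA was in the Fcrls and Siglech windows and in 21.0% of all promoters. The E-box CACGTG was in the P2ry12 and Siglech windows and in 7.15% of all promoters. The TATA box TATAAA was in the Fcrls window and in 13.6% of all promoters. No searched motif was shared by all matched genes, and no matches overlapped. A match describes letters in the window and no more. The windows with a match are printed because these genes differ in their values after repopulation, with the matched letters in capitals, 5′ to 3′ on the strand of the gene.
P2ry12, chr3:59262936-59263235, minus strand, E-box starting 228 bases before the start site: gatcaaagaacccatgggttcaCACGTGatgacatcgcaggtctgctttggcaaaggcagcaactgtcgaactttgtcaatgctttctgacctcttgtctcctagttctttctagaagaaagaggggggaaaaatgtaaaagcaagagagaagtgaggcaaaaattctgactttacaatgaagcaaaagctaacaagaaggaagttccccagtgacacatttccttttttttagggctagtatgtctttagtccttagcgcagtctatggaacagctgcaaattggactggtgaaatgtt
Fcrls, chr3:87263475-87263774, minus strand, TATA box and short SMAD motif starting 217 and 89 bases before the start site: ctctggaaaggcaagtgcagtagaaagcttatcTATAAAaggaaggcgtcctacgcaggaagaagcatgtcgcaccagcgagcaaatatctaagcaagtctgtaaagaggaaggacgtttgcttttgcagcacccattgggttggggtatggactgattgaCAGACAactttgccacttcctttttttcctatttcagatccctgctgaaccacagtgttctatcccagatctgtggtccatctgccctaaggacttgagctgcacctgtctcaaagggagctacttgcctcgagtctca
Siglech, chr7:55767934-55768233, plus strand, short SMAD motif on the opposite strand and E-box starting 75 and 56 bases before the start site: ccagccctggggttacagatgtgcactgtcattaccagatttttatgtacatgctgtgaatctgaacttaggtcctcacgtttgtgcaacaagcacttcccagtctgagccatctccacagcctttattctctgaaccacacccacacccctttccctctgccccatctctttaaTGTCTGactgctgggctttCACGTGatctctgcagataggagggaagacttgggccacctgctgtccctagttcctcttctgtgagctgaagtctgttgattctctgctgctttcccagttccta

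After 2 weeks of depletion, 8 of the 9 genes fell in D8 depleted against D8 retina and Olfml3 did not pass the test. Of all tested genes in that comparison 4.9% fell, and 3.01% of the tested genes at or under the 40th percentile of level, where all 9 genes lay. The median log2 fold change of the 9 genes was -3.17, against 0.00 for all tested genes. Selplg had a mean of 0.0392 in D8 depleted and 0.868 in D8 retina, 22.1-fold lower (log2 -4.47 ± 0.57 SE, adjusted p = 8.27e-12 in the authors' deposited table). Group means are in a unit that the sources do not name, so levels are compared within a gene only. Tmem119 had 0.0643 in D8 depleted and 0.604 in D8 retina, 9.39-fold lower (log2 -3.23 ± 0.56 SE, adjusted p = 3.75e-06 in the authors' deposited table).

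The lectin Siglech was close to 0 after depletion, with a mean of 0.0034 in D8 depleted and 0.158 in D8 retina (log2 -5.54 ± 1.26 SE, adjusted p = 0.000767 in the authors' deposited table). Fcrls was likewise near 0, with 0.00493 in D8 depleted and 0.149 in D8 retina (log2 -4.92 ± 1.28 SE, adjusted p = 0.0042 in the authors' deposited table). So near 0, a fitted fold rests on the model behind it and is not a bound. The nucleotide receptors fell less far, by 3.92-fold for P2ry12 and 9.0-fold for P2ry13. P2ry12 had 0.0917 in D8 depleted and 0.36 in D8 retina (log2 -1.97 ± 0.54 SE, adjusted p = 0.00708 in the authors' deposited table). P2ry13 had 0.0196 in D8 depleted and 0.176 in D8 retina (log2 -3.17 ± 0.78 SE, adjusted p = 0.00226 in the authors' deposited table). The lipid receptor Gpr34 lay between these receptors, with 0.0241 in D8 depleted and 0.191 in D8 retina (log2 -2.99 ± 0.77 SE, adjusted p = 0.00383 in the authors' deposited table).

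Sall1, the factor that maintains the set, passed the threshold narrowly (log2 -1.56 ± 0.56 SE, adjusted p = 0.0484 in the authors' deposited table). Its mean was 0.0329 in D8 depleted and 0.097 in D8 retina. Olfml3 had 0.992 in D8 depleted and 1.32 in D8 retina, a log2 of -0.41 with a 95% interval of -0.85 to 0.02 (adjusted p = 0.23 in the authors' deposited table). Its interval was the narrowest of the 9, and it is the gene of the set whose value lay closest to 0.

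**Figure D1:**
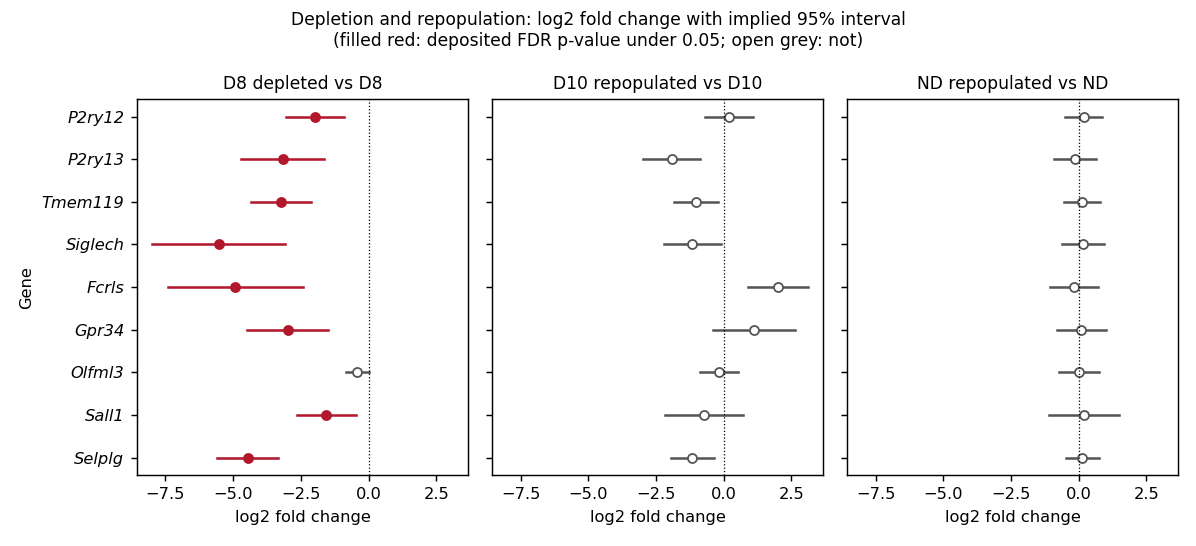
Log2 fold change of each gene (x axis) with its implied 95% interval in D8 depleted against D8, D10 repopulated against D10, and ND repopulated against ND. Filled red points had an adjusted p under 0.05: 8 genes in the left panel and 0 in the others, and in the middle panel Fcrls and P2ry13 lie on opposite sides of 0.

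General myeloid genes fell with the set. Of 16 pan-myeloid and microglial genes, 14 fell in D8 depleted against D8 (median log2 -3.64), and those with the smallest p were the protease Ctss (-4.11) and the complement genes C1qa (-6.92), C1qb (-6.97) and C1qc (-5.82) in the authors' deposited table. The fractalkine receptor Cx3cr1 had a log2 of -6.98, the CSF1 receptor Csf1r -3.15 and the calcium binding Aif1 -3.52, and all 3 fell in the authors' deposited table. Of the lists around the 9 genes, the purinergic, TGF-beta and transcription factor lists had 1 or 2 genes called each, and the selectin list 4. Of 14 purinergic partners only P2ry6, a UDP receptor, fell (-2.85), and of 14 TGF-beta genes Itgb8 (-1.10) and the receptor Tgfbr2 (-0.89) fell, in the authors' deposited table. Of 10 microglial transcription factors Spi1, which encodes PU.1, fell (-2.78), as did Mef2c (-0.37), in the authors' deposited table. Of 9 selectins and DAP12 partners Tyrobp, which encodes DAP12 (-3.68), and Cd33 (-3.07) fell, while the lectins Siglece (1.33) and Siglec1 (1.97) rose, in the authors' deposited table.

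Markers of other cell types moved in the same comparison, where 5.85% of all tested genes rose. Of 7 lens genes 5 fell (median log2 -2.93) and of 5 red blood cell genes 4 rose (median 2.13) in D8 depleted against D8. Of 12 retinal cell genes 3 fell (median -0.11), of 10 border macrophage genes 2 fell and 1 rose, of 9 neutrophil genes 2 rose and 1 fell, and of 7 monocyte genes, 6 of them tested, 1 rose and 1 fell. None of the 3 tested of 5 plasmacytoid dendritic cell genes, 2 tested of 5 platelet genes and 3 tested of 5 T cell genes passed the test, and Klk1, Gp1ba and Cd3e were listed at 0 in both groups. Of 6 endothelial and mural genes 1 fell. The part of these other cells in the values of the 9 genes was not tested.

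Against ND the same 8 genes fell in D8 depleted retina, where 13% of all tested genes fell and 15.5% rose (median log2 of the 9 genes -3.62). Siglech had 1.70% of its ND level in D8 depleted retina by the deposited fold, Fcrls 2.34%, Selplg 4.25% and Gpr34 7.69%. P2ry13 had 8.13% of its ND level, Sall1 9.22%, Tmem119 9.99% and P2ry12 20.1%. Olfml3 kept 52.5% of its ND level (log2 -0.93, adjusted p = 0.0667 in the authors' deposited table). Of the pan-myeloid list 13 of 16 fell (median log2 -3.32). Of the transcription factors Irf8 (1.26) and Runx1 (1.07) rose, and Spi1 (-1.16) did not pass the test, in the authors' deposited table. Among markers of other cell types 7 of 7 lens genes fell (median -8.65), 4 of 12 retinal genes fell and 1 rose (median -0.29), 4 of 10 border macrophage genes fell and 1 rose (median -0.63), and 4 of 9 neutrophil genes rose and 1 fell (median 2.28). Their part in the values of the 9 genes was not tested. Each of the 9 genes had its lowest fitted level of all 7 groups in D8 depleted retina.

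In repopulated non-diabetic retina the 9 genes lay close to their ND levels, and none was called. The log2 fold changes in ND repopulated against ND ran from -0.19 for Fcrls to 0.20 for Sall1, and 0 of 9 genes were called in either direction, with 0 at an unadjusted p under 0.05 in the authors' deposited table, the only test available. Of all tested genes in that comparison 0.0714% fell, and 2.29% of genes with a p had an unadjusted p under 0.05. P2ry12 had 0.506 in ND repopulated and 0.446 in ND retina, and the 95% interval of its log2 ran from -0.50 to 0.86. Selplg had 0.995 in ND repopulated and 0.908 in ND retina (interval -0.48 to 0.75). Tmem119 had 0.695 in ND repopulated and 0.641 in ND retina (interval -0.53 to 0.77). The interval of Sall1 was the widest of the 9 (-1.10 to 1.5). The pan-myeloid list had 0 of 16 genes called (median log2 0.11), and Cx3cr1 (0.16), Csf1r (0.22), C1qa (0.00) and Aif1 (0.41) did not pass the test in the authors' deposited table. Of the other lists around the set 0 genes were called, and of the lens genes Crygd rose, where 0.0844% of all tested genes rose. No non-diabetic group was taken at the end of depletion, so a return to the ND level and a loss that did not occur cannot be told apart here.

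In diabetic retina the values after repopulation differed from gene to gene. None of the 9 was called in D10 repopulated against D10, where 0.267% of all tested genes fell. At an unadjusted p under 0.05, 4 were lower and 1 was higher, and 6.70% of all genes with a p were at that level in the authors' deposited table, the only test available. Fcrls had a mean of 0.185 in D10 repopulated and 0.0457 in D10 retina, 4.04 times as much (log2 2.01 ± 0.57 SE, p = 0.000389, adjusted p = 0.0704 in the authors' deposited table). P2ry13 had 0.0433 in D10 repopulated and 0.164 in D10 retina, 3.79-fold less (log2 -1.92 ± 0.54 SE, p = 0.000376, adjusted p = 0.0695 in the authors' deposited table). The fitted values of this scavenger receptor and this ADP receptor thus lay on opposite sides of 0 by similar amounts, and neither passed the adjusted threshold.

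The other genes with an unadjusted p under 0.05 had log2 values close to -1. Selplg had 0.302 in D10 repopulated and 0.674 in D10 retina (log2 -1.16, p = 0.0045, adjusted p = 0.27 in the authors' deposited table). Tmem119 had 0.210 in D10 repopulated and 0.426 in D10 retina (log2 -1.02, p = 0.0134, adjusted p = 0.438 in the authors' deposited table). Siglech had 0.0424 in D10 repopulated and 0.0943 in D10 retina (log2 -1.15, p = 0.0333, adjusted p = 0.598 in the authors' deposited table). P2ry12, Gpr34, Sall1 and Olfml3 had intervals that include 0. P2ry12 had 0.147 in D10 repopulated and 0.128 in D10 retina (95% interval of the log2 -0.70 to 1.09). Gpr34 had 0.0849 in D10 repopulated and 0.0389 in D10 retina (-0.40 to 2.65).

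General myeloid genes were lower in the same comparison. Of the 16 pan-myeloid genes 6 fell in D10 repopulated against D10 (median log2 -0.97), among them Ctss (-1.48), Cx3cr1 (-1.96), C1qa (-1.34) and C1qb (-1.12) in the authors' deposited table. Csf1r (-0.86) and Aif1 (-0.72) did not pass the test in the authors' deposited table. No purinergic partner, TGF-beta gene, transcription factor or selectin of the lists was called. Among other cell types 4 of 5 red blood cell genes rose (median log2 3.81), where 0.178% of all tested genes rose. Of the border macrophage, monocyte, neutrophil, retinal, endothelial and lens lists 0 genes were called. The part of red blood cell RNA in the values of the 9 genes was not tested.

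Set against ND, 6 of the 9 genes were lower in D10 repopulated retina, where 4.19% of all tested genes fell (2.07% at or under the 40th percentile of level). P2ry13 had 18.2% of its ND level (log2 -2.46 ± 0.50 SE, adjusted p = 3.37e-05 in the authors' deposited table). Siglech had 21.0% (log2 -2.25 ± 0.47 SE, adjusted p = 7.42e-05 in the authors' deposited table). The ADP receptor and the lectin were thus the furthest below ND of the 9. Gpr34 had 28.0% of its ND level, Tmem119 32.6%, Selplg 32.8% and P2ry12 33.1%, and all 4 fell, with adjusted p between 6.68e-05 and 0.00668 in the authors' deposited table. Sall1 had 29.1% but did not pass the test (adjusted p = 0.0654 in the authors' deposited table). Fcrls stood apart with 88.9% of its ND level (log2 -0.17, 95% interval -1.05 to 0.71), and Olfml3 had 87.3% (interval -0.93 to 0.54), in the authors' deposited table.

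Of the pan-myeloid list 6 of 16 fell against ND (median log2 -0.31), and those with the smallest p were Cx3cr1 (-2.06), Ctss (-0.77) and the lipid receptor Trem2 (-1.71) in the authors' deposited table. Csf1r fell as well (-0.85), and C1qa (-0.35) and Aif1 (0.03) did not pass the test in the authors' deposited table. The transcription factors Irf8 (1.33), Runx1 (1.59), Spi1 (1.30) and Mef2a (0.35) rose, of which Irf8 and Runx1 also rose in D8 depleted against ND. Which cells these rises came from was not tested. Of the TGF-beta genes Itgav (0.79), Smad3 (0.41) and Nrros (0.57), which encodes a partner of latent TGF-beta, rose in the authors' deposited table, and of the purinergic partners 0 of 14 were called. Neutrophil genes (6 of 9, median log2 2.56), monocyte genes (3 of 7, median 0.95) and 1 border macrophage gene of 10 rose in the same retinas. Of all tested genes in that comparison 7.49% rose. The part of neutrophil, monocyte and border macrophage RNA in the values of the 9 genes was not tested.

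Some of the 9 genes were lower than in ND at 6 and 10 weeks of diabetes without depletion. At 6 weeks 3 fell against ND, at 8 weeks 0 and at 10 weeks 3. The shares of all tested genes that fell were 9.31% at 6 weeks, 0.583% at 8 weeks and 1.41% at 10 weeks. Among tested genes at or under the 40th percentile of level, where 8 of the 9 genes lay, they were 3.28%, 0.279% and 1.12%. By either share, the count of 3 at 6 weeks stands against a higher background than the count of 3 at 10 weeks. All 3 comparisons use the same ND samples. The median log2 fold change of the 9 genes was -0.97 at 6 weeks, -0.47 at 8 weeks and -1.05 at 10 weeks.

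The receptors P2ry12 and Gpr34 fell at both outer times. Gpr34 had a log2 against ND of -1.57 at 6 weeks, -0.72 at 8 weeks and -2.97 at 10 weeks, with adjusted p of 0.0141, 0.652 and 2.86e-05 in the authors' deposited tables. P2ry12 had -1.08 at 6 weeks, -0.34 at 8 weeks and -1.80 at 10 weeks, with adjusted p of 0.0187, 0.83 and 0.000131 in the authors' deposited tables. Fcrls fell at 10 weeks, with -1.16 at 6 weeks, -0.50 at 8 weeks and -2.19 at 10 weeks and adjusted p of 0.0621, 0.794 and 0.00143 in the authors' deposited tables. These 3 genes had 12.7%, 28.8% and 22.0% of their ND level at 10 weeks in the order Gpr34, P2ry12 and Fcrls. P2ry13 fell at 6 weeks and was not called later, with -1.23 at 6 weeks, -0.47 at 8 weeks and -0.55 at 10 weeks and adjusted p of 0.0221, 0.77 and 0.582 in the authors' deposited tables. Differences between the times were not tested.

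The markers Tmem119, Selplg and Siglech did not pass the test at any time. Tmem119 had -0.86 at 6 weeks, -0.12 at 8 weeks and -0.61 at 10 weeks, with adjusted p of 0.0504, 0.96 and 0.386 in the authors' deposited tables. Siglech had -0.97 at 6 weeks, -0.35 at 8 weeks and -1.08 at 10 weeks, with adjusted p of 0.0702, 0.848 and 0.103 in the authors' deposited tables. Selplg had -0.46 at 6 weeks, -0.10 at 8 weeks and -0.46 at 10 weeks, with adjusted p of 0.312, 0.965 and 0.546 in the authors' deposited tables. Selplg kept 72.9% of its ND level at 10 weeks and Tmem119 65.7%. Sall1 was lowest at 8 weeks (log2 -1.88, p = 0.0056, adjusted p = 0.126 in the authors' deposited table), the one gene of the 9 with an unadjusted p under 0.05 at 8 weeks, where 10.4% of all genes with a p were at that level. Olfml3 had 0.14 at 6 weeks, -0.53 at 8 weeks and -0.04 at 10 weeks and was called at none of the times in the authors' deposited tables.

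**Figure D2:**
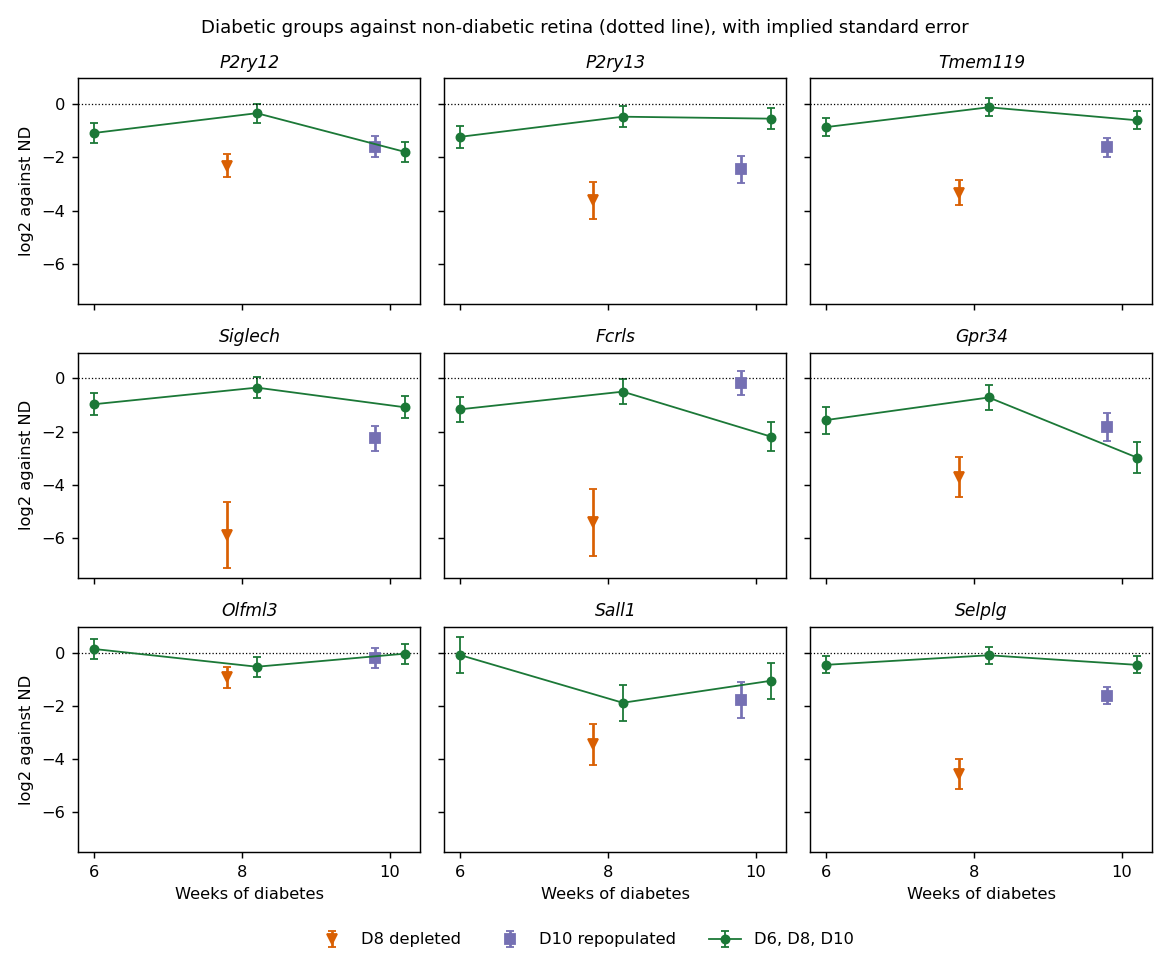
Log2 fold change against ND (y axis, dotted line at ND) by weeks of diabetes, with implied standard errors, for each gene. The depleted group is lowest in every panel, and at 10 weeks the repopulated group lies above D10 for Fcrls (-0.17 against -2.19) and below it for P2ry13 (-2.46 against -0.55).

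The pan-myeloid genes that passed the test at these times were all higher than in ND, and the lists were not tested against each other. In D6 against ND 3 of 16 rose, where 14.1% of all tested genes rose, among them Fcer1g (1.49) and C1qb (0.67), in the authors' deposited table. In D8 against ND 4 rose (2.33% of all tested genes), among them C1qb (0.88) and C1qa (0.72), and in D10 against ND 6 rose (5.59% of all tested genes), among them the integrin Itgam (1.97), Fcer1g (1.78), C1qb (1.04) and C1qa (0.98), in the authors' deposited tables. No pan-myeloid gene fell at any of the 3 times, and the medians were 0.37 at 6 weeks, 0.44 at 8 weeks and 0.72 at 10 weeks. Csf1r (-0.41, -0.04 and 0.00 at 6, 8 and 10 weeks), Cx3cr1 (-0.78, 0.07 and -0.13) and Aif1 (0.52, 0.74 and 0.74) did not pass the test at any time in the authors' deposited tables.

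Spi1 rose at each time (1.63 at 6 weeks, 1.61 at 8 weeks and 2.09 at 10 weeks), and Irf8 and Runx1 rose at 6 and 10 weeks, in the authors' deposited tables. Irf8 and Runx1 also rose in depleted retina against ND, as given above. The selectins that bind PSGL-1 rose at each time, with Selp at 6.38, 6.24 and 7.60 and Sele at 4.85, 4.56 and 6.11 at 6, 8 and 10 weeks in the authors' deposited tables, folds that start from levels near 0 in ND. Of the TGF-beta genes Itgav rose at each time and Itgb8 (1.13) and Smad3 (0.48) at 10 weeks. Of the purinergic partners the ectonucleotidase Entpd1 rose (1.03) and the G protein gene Gnai2 fell (-0.25) at 6 weeks, and none was called at 8 and 10 weeks, in the authors' deposited tables. Neutrophil genes rose as well, 4 of 9 at 6 weeks, 1 at 8 weeks and 4 at 10 weeks, and monocyte genes 2, 0 and 4 of 7. Red blood cell genes fell at 6 weeks (1 of 5), 8 weeks (4 of 5, median -3.59) and 10 weeks (5 of 5, median -3.36). Of 7 lens genes 2 rose at 6 weeks and 5 fell at 8 weeks. Of 12 retinal genes 4 fell and 1 rose at 6 weeks, 1 rose at 8 weeks, and 2 fell and 1 rose at 10 weeks. Their part in the values of the 9 genes was not tested.

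**Figure D3:**
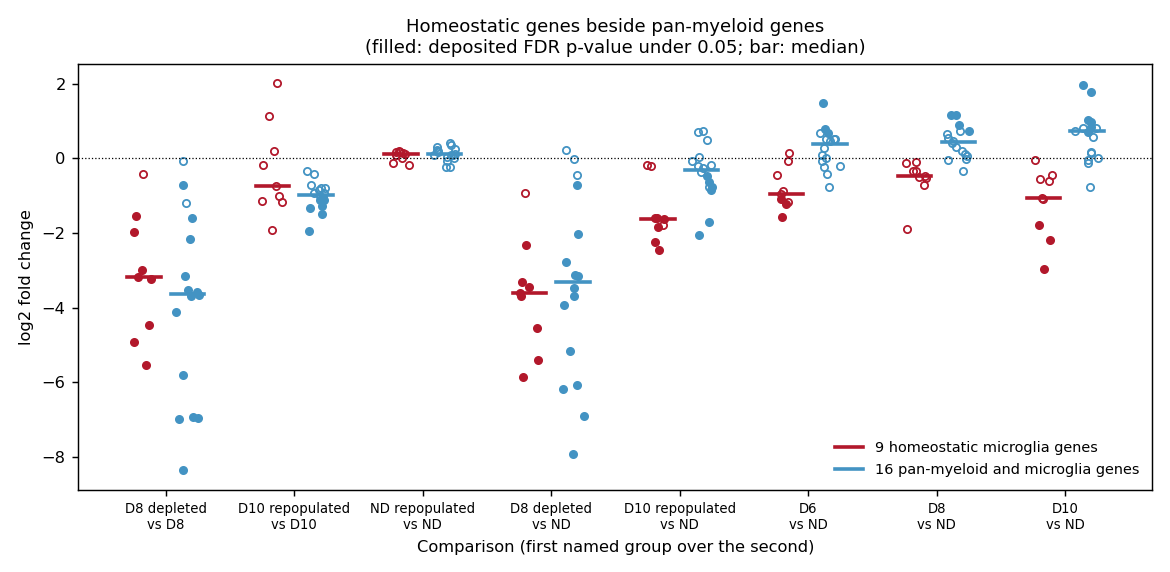
Log2 fold changes (y axis) of the 9 genes, red, and of 16 pan-myeloid and microglial genes, blue, in each comparison, with bars at the medians and filled points at an adjusted p under 0.05. Both medians lie below -3 after depletion, whereas in D10 against ND the median of the 9 genes is -1.05 and that of the pan-myeloid genes is 0.72.

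Effects in comparisons that share no samples were set against each other by a normal test of one log2 fold change minus the other, adjusted over all genes. Each effect has its own control, so a difference between the controls enters these values. Repopulation in diabetic retina minus repopulation in non-diabetic retina was called for 0 of the 9 genes, with 0.0657% of all tested genes called higher. An unadjusted p under 0.05 was found for 5 of the 9, and for 3.70% of all genes. The difference was 2.20 ± 0.73 SE for Fcrls (adjusted p = 0.489, from the authors' fold changes) and -1.78 ± 0.67 SE for P2ry13 (adjusted p = 0.844, from the authors' fold changes). That the 2 kinds of retina differ in how these genes returned is therefore not shown for single genes of the set. Repopulation minus depletion in diabetic retina was called higher for 3 of the 9, with 0.27% of all tested genes called higher. These were Fcrls (6.93 ± 1.4 SE, adjusted p = 0.000748), Selplg (3.31 ± 0.70 SE, adjusted p = 0.00181) and Gpr34 (4.12 ± 1.09 SE, adjusted p = 0.036), from the authors' fold changes. The smallest difference of a gene that had fallen on depletion was that of Sall1 (0.82 ± 0.92 SE), followed by P2ry13 (1.25 ± 0.95 SE). The controls here were D10 and D8. Against ND, Fcrls had a log2 of -2.19 in D10 and -0.50 in D8, Gpr34 -2.97 and -0.72, and Selplg -0.46 and -0.10. Sall1 went the other way, with -1.05 in D10 and -1.88 in D8. D10 repopulated was not tested against D8 depleted. Repopulation in non-diabetic retina minus depletion in diabetic retina was called higher for Selplg (4.60 ± 0.65 SE, adjusted p = 3.59e-09), Tmem119 (3.35 ± 0.66 SE, adjusted p = 0.000263) and Siglech (5.69 ± 1.31 SE, adjusted p = 0.00423), from the authors' fold changes, with 0.395% of all tested genes called higher.

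Ordered by fitted level, D8 depleted was the lowest group for 9 of 9 genes, and ND repopulated was the highest for 6, ND for 2 (P2ry13 and Fcrls) and D6 for 1 (Olfml3). The group just above D8 depleted was D10 repopulated for P2ry13, Tmem119, Siglech and Selplg, D10 for P2ry12, Fcrls and Gpr34, and D8 for Olfml3 and Sall1. At the top of the order, none of the 9 genes was called in ND repopulated against ND. The levels follow the deposited group means, which could be read for 26 pairs of gene and group other than ND and lay between 0.981 and 1.02 times the level given by the ND mean and the fold against ND.

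**Figure D4:**
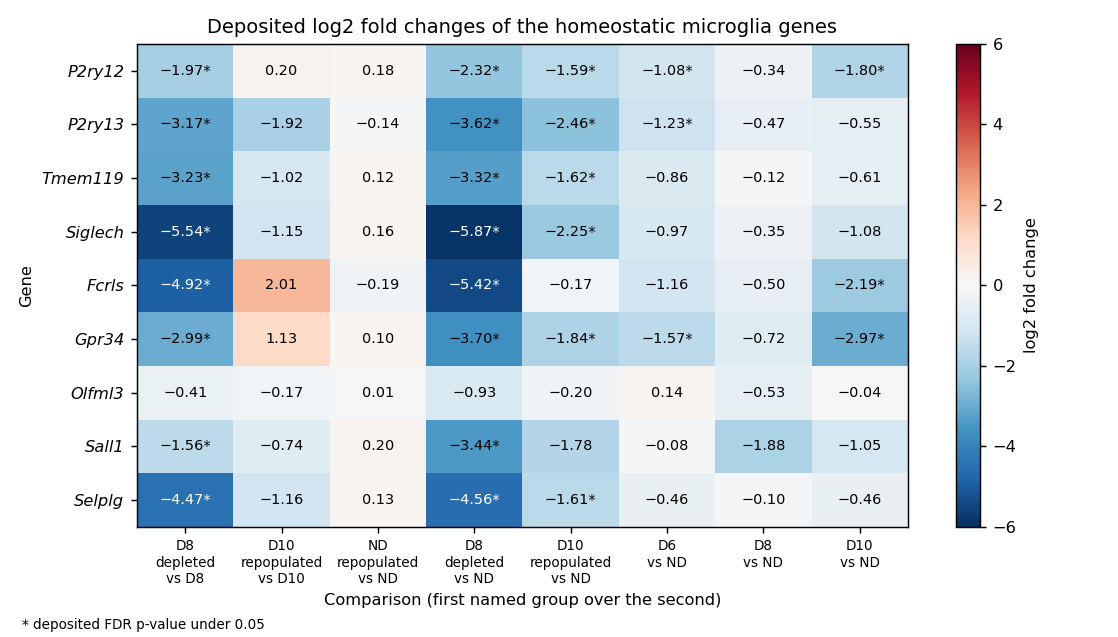
Log2 fold changes of the 9 genes (rows) in the 8 comparisons (columns), each the first named group over the second, with a star at an adjusted p under 0.05. The columns of D8 depleted hold 8 starred genes each. Those of D10 repopulated against D10, ND repopulated against ND and D8 against ND hold none.

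Of the 9 genes, 3 share their position with another gene. P2ry12 and P2ry13 lie within Med12l (chr3:58913246-59226103 of GRCm39) on the opposite strand, and Gpr34 lies within Cask (chrX:13383319-13717606) on the opposite strand. The libraries mark strand, but the sources used here do not say whether the authors counted by strand, and reads of these pairs may not be separated. Med12l was called in none of the 8 comparisons, with log2 fold changes from -0.01 to 0.23, and Cask in none, with -0.08 to 0.19, in the authors' deposited tables. The share of P2ry12 left after depletion (20.1%) was higher than that of Siglech (1.70%), and the part of Med12l reads in it was not tested. In D10 retina P2ry12 and P2ry13, both within Med12l, had 28.8% and 68.5% of their ND level.

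Genes with a profile near that of the set were taken by the distance of their 8 log2 fold changes from the median of the 9 genes. Among 10460 named genes in the upper 60% of level, the nearest 8 were the histone gene H4c12 (distance 2.16), Ctss (2.75), the protocadherin Pcdhga12 (2.81), the histone gene H1f4 (3.01), Tyrobp (3.07), the chemokine Cxcl12 (3.08), the histone gene H3c15 (3.14) and Katnal2 (3.18). That filter takes the largest group mean of a gene over all 8 comparisons and lay at 2.35, and none of the 9 genes reached it (Olfml3 came nearest, at 2.04). Without the level filter, a choice made after the values were seen, the nearest of 16941 genes were Trem2 (0.982), Ccr2 (1.06), Tbxas1 (1.12), Vsir (1.22), Gp9 (1.38), Capn3 (1.51), Olfr46 (1.51) and Csf1r (1.56), of which Ccr2 and Olfr46 had larger group means of at most 0.00583 and 0.00419. Among the 9 genes Tmem119 was nearest to the median of the set (0.712) and Olfml3 farthest from it (4.41).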

How the data were processed

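Poly(A) RNA of mouse retina was sequenced as stranded libraries with paired reads of 100 bases, per the labels' protocols. The submitters' processing notes name bcl2fastq and GRCm39. Versions, aligner, counting, scaling and the test used are not given in these sources. The authors deposited 8 tables with a log2 fold change per gene between 2 groups, and the sign of D10 against D10 repopulated was turned. The deposited signal level is the larger of both group means, in an unnamed unit, from which the other mean was computed by the fold. The p-value and FDR p-value were deposited by the authors. Depth per sample is unknown.

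Genes were called at an FDR p-value under 0.05. Differences between tables without shared samples used a normal test with Benjamini-Hochberg adjustment, tested on simulated data. The rule for names takes all 9 genes, Cx3cr1, Csf1r, C1qa, Aif1 and 1 gene that is not reported here, up to 4 called genes of each further list per comparison, and the 8 nearest genes. Med12l, Cask and the list genes at 0 were named after their values were seen. The 9 genes and the lists were chosen with earlier results of these data known. Alternatives were call thresholds of 0.01 and 0.10, a minimum absolute log2 of 1, Bonferroni p-values, a filter on level, median centring, the route through ND and ratios of group means. The share of low-level genes called and the nearest genes without a level filter were added after the data were seen. The tools were matplotlib 3.10.9, scipy 1.17.1, pandas 2.3.3 and numpy 2.4.6 in Python 3.11.15.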

Additional observations from a re-analysis of the deposited data

Results flagged for a closer look

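The difference of repopulated from control retina itself differed between diabetic and non-diabetic groups for 2 of the genes named in every comparison. Both are on the list of pan-myeloid and microglial genes, and neither is one of the 9 genes described here. The controls, D10 and ND, differ by PBS as well as by diabetes, and no non-diabetic group was taken at the end of depletion. Cx3cr1 had a log2 fold change of -1.96 in D10 repopulated against D10 and 0.16 in ND repopulated against ND, a difference of -2.12 ± 0.45 SE (adjusted p = 0.00324, from the authors' fold changes over all genes). C1qa had -1.34 in D10 repopulated against D10 and 0.00 in ND repopulated against ND, a difference of -1.34 ± 0.30 SE (adjusted p = 0.0097, from the authors' fold changes over all genes). Against ND, C1qa rose in D10 (0.98) and did not pass the test in D10 repopulated (-0.35, adjusted p = 0.265 in the authors' deposited table). Cx3cr1 did not pass the test in D10 against ND (-0.13) and fell in D10 repopulated against ND (-2.06). Groups of samples could not be searched for outlying samples, because no values per sample were used.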

How the results depend on the processing

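The counts of called genes kept their side within a factor of 1.5 in all settings except these. With Bonferroni p-values, 2 genes were called in D8 depleted against D8 (8 in the main test), 3 in D10 repopulated against ND (6), 0 in D6 against ND (3) and 1 in D10 against ND (3). At a threshold of 0.01, 0 were called in D6 against ND. At a threshold of 0.10, 6 were called in D6 against ND, 2 in D10 repopulated against D10 (Fcrls higher and P2ry13 lower, 0 in the main test), and 7 in the difference of repopulation in non-diabetic retina and depletion in diabetic retina (3 in the main test). Of 72 centred log2 values, Sall1 in D8 depleted against D8 lost its call (adjusted p = 0.0506, against 0.0484, in a normal test on the authors' values) and Tmem119 in D6 against ND gained one (adjusted p = 0.0479, against 0.0504). Centring moved no log2 value by more than 0.0141, the route through ND none of 18 by more than 0.0258, and ratios of group means none of 26 by more than 0.0318. The route and the ratios rebuild a fold from the same samples. Little movement was therefore possible, and they are not an independent check. The filter on the upper 60% of level kept at most Olfml3 of the 9 genes in any comparison, judged by the level in that comparison, so it gave no count. No paired analysis was possible because the deposited tables hold no values per sample, and for that reason no sample was left out in turn.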

Other observations

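Genes of disease-associated microglia, a state in which the homeostatic set is known to be low, were described by a list of 15. In D10 against ND, where 5.59% of all tested genes rose, 4 of them rose, the kinase receptor Axl (log2 0.97), Gpnmb (1.51), Cd63 (0.48) and Cd9 (0.40), and 0 fell, in the authors' deposited table. In D10 repopulated against D10 only Gpnmb was called, and it fell (-1.30), while in D10 repopulated against ND only Axl was called, and it rose (0.70), in the authors' deposited tables. In D8 depleted against D8 the lectin Clec7a fell (-3.62) and Lgals3 (1.4) and Gpnmb (0.69) rose in the authors' deposited table. Axl (-0.29), Cd63 (0.11) and Cd9 (0.01) did not pass the test there. The median log2 of the list was 0.01 in that comparison, against -3.64 for the pan-myeloid list. Which cells these genes were expressed in was not tested. In D8 depleted against ND Clec7a (-3.10) and Ctsb (-0.46) fell and 0 of the 15 rose in the authors' deposited table. In D6 against ND 3 of 15 rose, Fabp5 (2.12), Axl (0.44) and Cd9 (0.32), where 14.1% of all tested genes rose, and none was called in D8 against ND or in ND repopulated against ND, in the authors' deposited tables.

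Of 10 markers of border macrophages the coagulation factor gene F13a1 (-5.89) and the mannose receptor Mrc1 (-3.09) fell in D8 depleted against D8 and Cbr2 rose (2.23), in the authors' deposited table. None was called in D10 repopulated against D10, and Cbr2 rose in D10 repopulated against ND (2.21), in the authors' deposited tables.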
